A study of Rattus norvegicus with 42 samples.

Results

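The second day of induced culture was compared with the first in rat metanephric mesenchyme, the embryonic tissue that forms the nephrons of the kidney. The comparison used the 6 arrays of mesenchyme cultured for 2 days, 2 with LIF, 2 with NGAL and 2 with the ANX fraction, and the 6 arrays of mesenchyme cultured for 1 day with the same inducers. These 12 arrays, of 42 in the series, were chosen by their labelled inducer and time, not by any measured value. The change of a gene is its log2 intensity on day 2 minus that on day 1 within each inducer, averaged over the 3 inducers.

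The mesenchyme came from rat embryos of embryonic day 13.5, was freed from the ureteric bud after a trypsin and DNase digestion, and was grown on collagen-coated transwell filters. RNA was hybridised to Affymetrix rat expression arrays, 2 arrays for each of 21 groups: fresh tissue, uninduced culture of 1 or 2 days, and 6 times of induced culture with each inducer. Cultures of every group had the same DMEM/F12-based medium, which held dexamethasone, T3, prostaglandin, selenium, transferrin, insulin, an FGF and a TGF whose letter is lost in the labels. The groups used here were LIF, NGAL and ANX cultures of 2 days, LIF, NGAL and ANX cultures of 1 day, uninduced cultures of 2 days and uninduced cultures of 1 day. The sources used here do not say what is in the ANX fraction. Arrays of a group are called biological replicates by the series design, but nothing names separate animals or litters, so p-values measure only the spread between these samples.

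In the embryo, the ureteric bud signals to the mesenchyme around it, whose cells then condense, switch on genes such as Wnt4, Pax8 and Lef1 and turn into an epithelial tubule. LIF is a cytokine that acts through the receptor subunit gp130 and the transcription factor STAT3. NGAL, the product of Lcn2, is a small secreted protein that carries siderophores with bound iron. Both can stand in for the bud when they are added to isolated rat mesenchyme.

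Genes that mark the metanephric mesenchyme were well measured on both days. Eya1, a transcriptional co-activator, averaged 11.39 on day 2 and 11.17 on day 1 on the log2 scale, and Sall1, a zinc finger factor, averaged 10.93 on day 2 and 10.99 on day 1. Wt1 averaged 10.54 on day 2 and 10.92 on day 1, and Pax2 averaged 7.41 on day 2 and 8.26 on day 1. None of these 4 genes passed the test. Cdh1, the cadherin of bud and tubule epithelium, averaged 4.06 on day 2 and 4.09 on day 1, below the threshold of 5.79 that a group mean had to pass for a gene to be tested. Six2, Cited1 and Foxd1 had no probe set that names a single gene. In bulk tissue, fewer cells of a type and less RNA per cell cannot be told apart.

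Some measures of RNA labelling and content also differed between the days. For dap, a bacterial RNA spiked in before labelling, the ratio of 3' to 5' signal on the log2 scale ran over 0.88 to 2.35 on day 2 and over 0.84 to 1.63 on day 1. It was high, at 2.15 to 2.35, in the 3 replicate 2 arrays of day 2, and 0.88 to 1.48 in the 3 replicate 1 arrays. The log2 signal of 5S rRNA was 7.11 to 9.63 on day 2 and 6.85 to 7.10 on day 1, and was highest in the NGAL arrays of day 2, at 9.63 and 9.36. The part of these measures in the results was not tested beyond the values given below. These are a fit with the dap ratio as a covariate and, added after seeing the data, a fit on 8 arrays. The latter left out LIF day 2 replicate 2, NGAL day 2 replicate 2, ANX day 2 replicate 2 and NGAL day 1 replicate 1. Only replicate 1 of each inducer was then left on day 2, and fewer arrays alone make a call harder to reach.

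**Figure D1:**
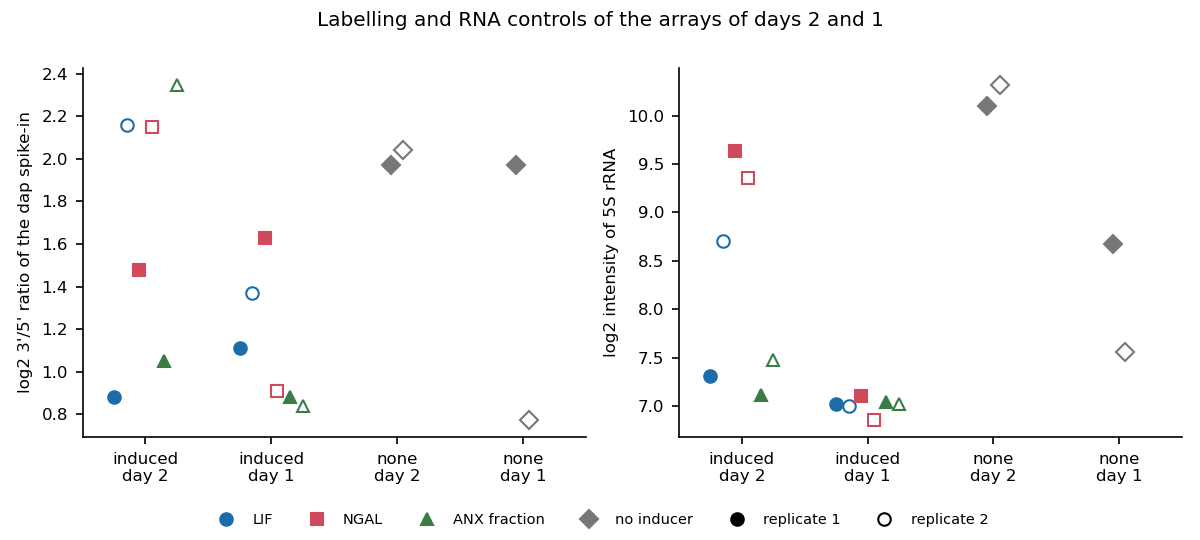
The dap 3'/5' ratio on the log2 scale (left) and log2 intensity of 5S rRNA (right) in each of the 12 induced and 4 uninduced arrays of days 2 and 1; colour and shape give the inducer, filled points replicate 1 and open points replicate 2. The replicate 2 arrays of induced day 2 stand at dap ratios of 2.15 to 2.35, above the induced arrays of day 1, and the NGAL arrays of day 2 have the highest induced 5S signal, 9.63 and 9.36.

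Most changes of the second day were small, and more genes fell than rose, an order that turned in 2 of the other fits. Of 11388 genes tested with limma, 311 (2.73%) passed an adjusted p (Benjamini-Hochberg) of 0.05: 103 were higher on day 2 (0.904%) and 208 were lower (1.83%). Only 27 of them changed at least 2-fold, 7 higher and 20 lower. At an unadjusted p under 0.05 there were 2306 genes (20.2%). The median change over all tested genes was -0.02, and 44.9% of them were higher on day 2 by any amount. Fits with a replicate block, which compare arrays of the same replicate number, called 545 genes (192 higher, 353 lower), or 595 (222 higher, 373 lower) with the block set within each inducer. Quantile normalising the arrays again called 350 genes, 198 higher and 152 lower, leaving out ANX day 1 replicate 2 called 160, 82 higher and 78 lower, and fitting only the 12 arrays called 479, 226 higher and 253 lower.

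The risen genes had a median change of 0.55, and those medians were 0.51 with LIF, 0.50 with NGAL and 0.46 with ANX. The fallen genes had a median of -0.42, with -0.45 under LIF, -0.46 under NGAL and -0.37 under ANX. In 74 of the 103 risen genes both day 2 arrays lay above both day 1 arrays under every inducer, against 2.83% of all tested genes. In 166 of the 208 fallen genes both day 2 arrays lay below both day 1 arrays under every inducer, against 5.73% of all tested genes. These counts follow in part from the test that chose the genes.

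The number of calls rested on single arrays. Leaving out NGAL day 1 replicate 2 left 43 calls, NGAL day 2 replicate 2 left 54, LIF day 2 replicate 2 left 62 and ANX day 2 replicate 2 left 73. The count was 113 without ANX day 1 replicate 1, 126 without LIF day 1 replicate 2, 144 without LIF day 1 replicate 1, 145 without ANX day 2 replicate 1, 160 without ANX day 1 replicate 2, 195 without LIF day 2 replicate 1 and 509 without NGAL day 1 replicate 1. In all 12 such fits, 11 of the risen and 25 of the fallen genes were called. In the 8 arrays with low dap ratios all 103 risen and 208 fallen genes kept their sign, with medians of 0.49 and -0.42. These 8 are among the 12 arrays whose comparison chose the genes, so the kept signs follow in part from that choice. Of the 77 called genes that the naming rule picked, 14 of 45 falls and 3 of 32 rises were called in all 12 fits.

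Haemoglobin genes showed the deepest fall of the second day. Hbg1, a haemoglobin chain gene, had log2 intensities of 5.77 and 7.06 with LIF, 9.19 and 8.27 with NGAL and 6.39 and 6.65 with ANX on day 2, against 9.43 and 9.62 with LIF, 9.90 and 9.88 with NGAL and 9.25 and 10.19 with ANX on day 1. Every day 2 array lay below every day 1 array, and the NGAL arrays of day 2 were the highest of that day. The change was -2.49 (SE 0.29, limma adjusted p = 0.000102), which leaves 0.178 of the day 1 level.

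Embryonic globin chains fell too. Hbe1, an embryonic beta-type globin, stood at 10.11 and 10.38 with LIF, 12.38 and 11.70 with NGAL and 10.62 and 10.52 with ANX on day 2, against 12.01 and 12.30 with LIF, 12.59 and 12.49 with NGAL and 12.18 and 12.43 with ANX on day 1. The NGAL array of day 2 at 12.38 overlapped the day 1 arrays of other inducers, and all other day 2 arrays lay below every day 1 array. Hbe1 fell by 1.38 on the log2 scale (SE 0.27, limma adjusted p = 0.00814), Hbz, an embryonic alpha-type globin, fell by 1.65 (SE 0.27, adjusted p = 0.00239) and Hbb fell by 0.57 (SE 0.12, adjusted p = 0.015). The probe set of Hbb can also bind related transcripts.

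Of the 10 measured genes of the erythroid list these 4 fell and none rose, beside 1.83% of all tested genes that fell. The list median was -0.43, beside -0.02 for all tested genes. The mean log2 level of the list ran over 6.96 to 8.04 on day 2 and 7.89 to 8.21 on day 1. It was 8.04 and 7.64 in the NGAL arrays of day 2 and at most 7.18 in the LIF and ANX arrays of day 2. The change of Hbg1 was -3.11 with LIF, -1.16 with NGAL and -3.20 with ANX, against -0.49 in uninduced culture. Neither the difference between inducers (limma F-test, adjusted p = 1 for Hbg1) nor that between induced and uninduced culture (-2.00, SE 0.58, adjusted p = 0.743) passed the test. Hbg1 changed by -2.59 and Hbe1 by -1.28 in the 8 arrays with low dap ratios, where only Hbg1 of these 4 genes passed; Hbg1, Hbz and Hbe1 were called in all 12 fits without 1 array, and Hbb in 10 (adjusted p = 0.081 without NGAL day 2 replicate 2).

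**Figure D2:**
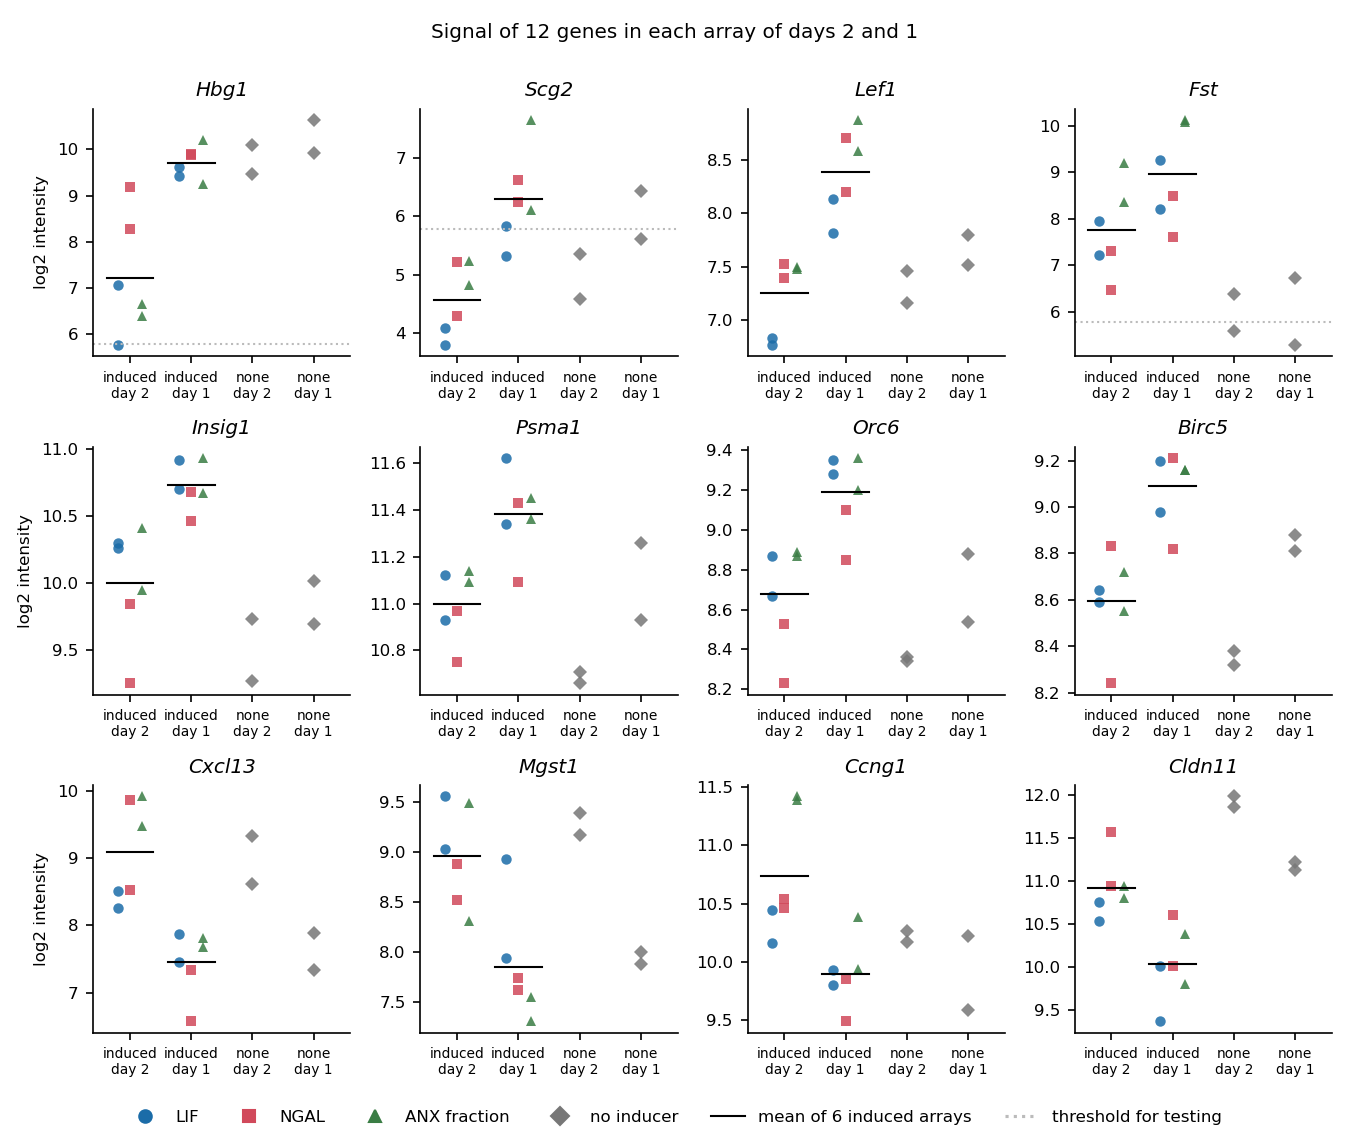
Log2 intensity of 12 genes in each array of induced day 2, induced day 1, uninduced day 2 and uninduced day 1; colour and shape give the inducer, black lines the mean of 6 induced arrays and dotted lines the threshold for testing. Hbg1 averages 7.22 on day 2 and 9.71 on day 1, with the NGAL arrays above the other day 2 arrays, while Cxcl13 and Cldn11 stand higher on day 2.

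Endothelial genes were lower on day 2 as well. Of 19 measured members of the endothelial list 4 fell and none rose, with a median of -0.35; of all tested genes 1.83% fell, with a median of -0.02. They were Sox17 (-0.98, SE 0.22, limma adjusted p = 0.0196), Sox7 (-0.92), Ramp2 (-0.74) and Plvap (-0.65). Sox17 and Sox7 are transcription factors of the vessel wall, Ramp2 is a partner of the adrenomedullin receptor, and Plvap forms the diaphragms of fenestrated capillaries. Sox17 lay between 5.75 and 7.84 on day 2 and between 6.67 and 8.43 on day 1, so that the days overlapped across inducers. Within LIF, NGAL and ANX both day 2 arrays of Sox17 and of Sox7 lay below both day 1 arrays.

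The mean log2 level of the endothelial list was 6.65 to 7.30 on day 2 and 7.19 to 7.53 on day 1. The list median in uninduced culture was -0.53. Between 0 and 5 members were called when 1 array was left out, with 0 without LIF day 2 replicate 2 or ANX day 2 replicate 2. In the 8 arrays with low dap ratios none was called and the median was -0.35, with -0.35 for Ramp2 and -0.37 for Plvap.

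Among the genes of nephron induction, Lef1 fell under all 3 inducers. Lef1, a transcription factor of the Wnt/beta-catenin pathway, had 6.77 and 6.84 with LIF, 7.53 and 7.40 with NGAL and 7.50 and 7.48 with ANX on day 2, against 8.13 and 7.82 with LIF, 8.20 and 8.70 with NGAL and 8.87 and 8.58 with ANX on day 1. All 6 day 2 arrays lay below all 6 day 1 arrays, which held for 0.861% of tested genes in that direction. The change was -1.13 (SE 0.15, limma adjusted p = 0.000196) and was called in all 12 fits without 1 array. In uninduced culture Lef1 stood at 7.46 and 7.16 on day 2 and 7.52 and 7.80 on day 1, near the induced level of day 2.

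Wnt4 and Pax8, which are needed for the mesenchyme to become epithelial, did not pass the test. Wnt4, the ligand, had 8.49 and 9.12 with LIF, 8.16 and 8.17 with NGAL and 7.61 and 8.74 with ANX on day 2, against 9.95 and 10 with LIF, 7.67 and 8.71 with NGAL and 9.48 and 8.68 with ANX on day 1. The days were apart with LIF, overlapped with NGAL and overlapped with ANX. The change was -0.70 (SE 0.32, limma adjusted p = 0.217), or -1.12 with the dap ratio as a covariate (adjusted p = 0.0357), against 1.58 in uninduced culture (adjusted p = 0.354). Pax8, a paired-box factor, changed by -0.65 (SE 0.25, limma adjusted p = 0.148), against 0.66 in uninduced culture, and Lhx1, a factor of the renal vesicle, by -0.19. For Lhx1, 5 of the induced group means of these days lay below the threshold, and with values under the threshold set to it the change was -0.008. Of 19 measured genes of the early induction list only Lef1 passed (5.26%, beside 2.73% of all tested genes), with a median of -0.20. Of 18 measured genes of the nephron progenitor list none passed, with a median of -0.17.

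Secreted signals and their antagonists were among the larger falls. Bmp5, a ligand of the BMP family, had 4.86 and 4.93 with LIF, 4.8 and 4.65 with NGAL and 6.07 and 6.12 with ANX on day 2, against 6.70 and 6.59 with LIF, 6.10 and 6.54 with NGAL and 7.44 and 7.52 with ANX on day 1. Its LIF and NGAL arrays of day 2 lay below the threshold, and with values under the threshold set to it the change of -1.57 (SE 0.23, limma adjusted p = 0.000608) became -0.92; on the average of its probe sets it was -1.04. Fst, follistatin, which binds activins and BMPs, had 7.95 and 7.22 with LIF, 6.48 and 7.31 with NGAL and 9.19 and 8.37 with ANX on day 2, against 9.26 and 8.20 with LIF, 7.61 and 8.48 with NGAL and 10.07 and 10.12 with ANX on day 1. Fst was lower on day 2 under each inducer, but its level differed so much between inducers that the days overlapped across them. It fell by 1.20 on the log2 scale (SE 0.31, adjusted p = 0.038), stayed called in 4 of 12 fits without 1 array (adjusted p = 0.153 without NGAL day 1 replicate 2) and changed by -0.03 in uninduced culture.

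Id1 and Id3, inhibitors of helix-loop-helix factors that respond to BMPs, each fell by 0.54, each on a probe set that may pick up related transcripts. With Fst they were the 3 members of 27 measured in the TGF-beta list that passed (11.1%, beside 2.73% of all tested genes). The list median was -0.02, the same as over all tested genes, and 0.06 with the arrays quantile normalised again. Scg2, secretogranin II, fell by 1.72 (SE 0.21, limma adjusted p = 0.000127), but all of its day 2 arrays, at 3.80 to 5.24, lay below the threshold, and its day 1 arrays ran over 5.33 to 7.65. With values under the threshold set to it the change of Scg2 was -0.58. Igdcc3 fell by 1.64 (SE 0.28, limma adjusted p = 0.00311), C1qtnf12 by 1.59 (SE 0.31, adjusted p = 0.00814) and Fndc3c1 by 1.42 (SE 0.24, adjusted p = 0.00236). The probe set of C1qtnf12 may also pick up related transcripts. The change of C1qtnf12 was -0.99 on the average of its probe sets, and those of Id1 and Id3 were -0.32 and -0.35 in the 8 arrays with low dap ratios, where neither passed.

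The remaining large falls had varied roles. Map7, which binds microtubules, lay between 5.51 and 6.15 on day 2 and between 6.46 and 8.08 on day 1 with no overlap, and fell by 1.34 (limma adjusted p = 0.006). With all of its probe sets averaged the change of Map7 was -0.77. Tbx18, a T-box factor of the stroma and ureter, had 5.57 and 6.5 with LIF, 5.76 and 5.90 with NGAL and 5.74 and 5.63 with ANX on day 2, against 7.76 and 7.53 with LIF, 6.39 and 7.31 with NGAL and 6.80 and 6.57 with ANX on day 1. The 2 days were apart within each inducer, and Tbx18 fell by 1.21 (SE 0.19, adjusted p = 0.00102). It changed by -1.52 in the 8 arrays with low dap ratios, where it passed, and by -1.08 in uninduced culture. Gap43, a protein of growth cones, fell by 1.18 (adjusted p = 0.00342), Rdh10, a retinol dehydrogenase that feeds retinoic acid synthesis, by 1.15 (adjusted p = 0.0271) and Eva1a by 1.08 (adjusted p = 0.00814). The stroma list had a median of -0.12, with an uncalled member as high as 1.21. In the neuron and Schwann cell list 9 members were higher and 3 lower, with a median of 0.10. Over all tested genes the median was -0.02 and 1.83% fell. Tbx18 and Gap43 were the members that passed of 18 measured in the stroma list and 12 in the neuron and Schwann cell list, and Rdh10 was called in 5 of 12 fits without 1 array (adjusted p = 0.106 without ANX day 2 replicate 2), with a change of -0.58 on the average of its probe sets.

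**Figure D3:**
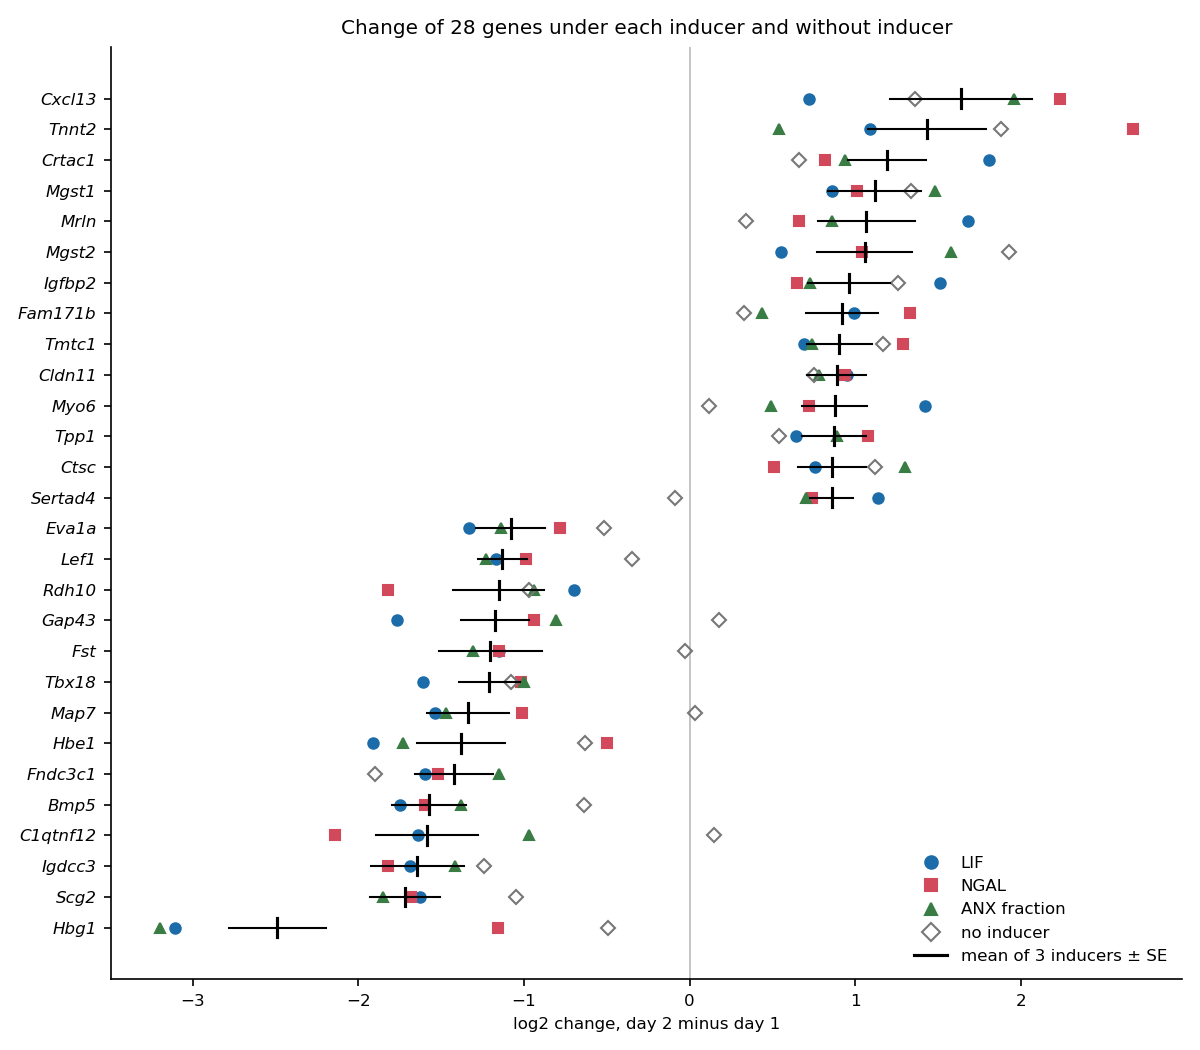
Log2 change, day 2 minus day 1 (x axis), of the 14 largest rises and 14 largest falls with both arrays apart under every inducer; coloured points are LIF, NGAL and ANX, open diamonds uninduced culture and black bars the mean of the 3 inducers with its SE. Hbg1 changes by -3.11 with LIF, -1.16 with NGAL and -3.20 with ANX, and Sertad4, Fst, Map7 and Gap43 have uninduced values near 0.

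Enzymes of cholesterol synthesis were lower on day 2. Cells make cholesterol from acetyl-CoA through mevalonate and squalene, and the genes of this route are switched on together by the SREBP factors when sterols are scarce. Of 20 measured genes of the list 9 fell and none rose, beside 1.83% of all tested genes that fell, and the list median was -0.47. Insig1, which holds SREBP in the endoplasmic reticulum and is itself an SREBP target, had 10.30 and 10.26 with LIF, 9.84 and 9.25 with NGAL and 9.95 and 10.41 with ANX on day 2, against 10.70 and 10.92 with LIF, 10.46 and 10.68 with NGAL and 10.67 and 10.93 with ANX on day 1. All 6 arrays of day 2 lay below all 6 of day 1, and Insig1 fell by 0.72 (SE 0.15, limma adjusted p = 0.0136).

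Sqle, squalene epoxidase, had 9.97 and 9.96 with LIF, 9.74 and 9.26 with NGAL and 9.94 and 10.24 with ANX on day 2, against 10.33 and 10.57 with LIF, 10.34 and 10.57 with NGAL and 10.34 and 10.72 with ANX on day 1. Here too the days did not overlap, and Sqle fell by 0.62 (SE 0.13, limma adjusted p = 0.017). The other members that fell were Fdft1 (-0.61), which makes squalene, Msmo1 (-0.60), a sterol oxidase, Acat2 (-0.58), which starts the route, Mvd (-0.57) and Mvk (-0.36) of the mevalonate steps, Stard4 (-0.52), which carries sterols, and Fdps (-0.49), which makes farnesyl diphosphate. Srebf2, the SREBP gene of the cholesterol route, changed by 0.05 and Hsd17b7, a late enzyme, by 0.02, without passing.

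The mean log2 level of the cholesterol list was 9.08 to 9.94 on day 2 and 9.73 to 10.21 on day 1. The list median was -0.37 with LIF, -0.75 with NGAL and -0.34 with ANX, against -0.43 in uninduced culture. Quantile normalising the arrays again moved the median of the mean change to -0.35, with 8 falls. The number called ran over 0 to 10 when 1 array was left out, with 0 without NGAL day 1 replicate 2, 1 without NGAL day 2 replicate 2, 2 without LIF day 2 replicate 2 and 3 without LIF day 1 replicate 2 or either of ANX day 2 replicate 1 and ANX day 1 replicate 2. In the 8 arrays with low dap ratios only Mvd passed (-0.71, limma adjusted p = 0.0369), and the list median was -0.57. Scd, which desaturates fatty acids and is also an SREBP target, fell by 0.91 (adjusted p = 0.0454), and Fabp5, a fatty acid carrier, by 0.40, whereas Cpt1a, which admits fatty acids to mitochondria for oxidation, rose by 0.74 (SE 0.14, adjusted p = 0.00814). Scd and Fabp5 were called in 2 and 1 of 12 fits without 1 array and Cpt1a in 11. With the arrays quantile normalised again Fabp5 changed by -0.26 and did not pass, and on the average of its probe sets Cpt1a changed by 0.45.

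DNA replication genes were lower by a small amount that was shared across the list. All 39 measured members had lower means on day 2, between -0.75 and -0.09, where 44.9% of all tested genes were higher. The median was -0.27, and 7 members passed, beside 1.83% of all tested genes in that direction: Orc6 (-0.51, SE 0.10, limma adjusted p = 0.00814) of the origin recognition complex, Rpa3 (-0.47) of the single-strand binding protein, Ccne1 (-0.43), the cyclin of S phase entry, Mcm5 (-0.40) and Mcm3 (-0.33) of the replicative helicase, Fen1 (-0.35), the flap nuclease, and Lig1 (-0.31), the replicative ligase. Orc6 had 8.87 and 8.67 with LIF, 8.53 and 8.23 with NGAL and 8.89 and 8.87 with ANX on day 2, against 9.35 and 9.28 with LIF, 8.85 and 9.10 with NGAL and 9.20 and 9.36 with ANX on day 1. The days were apart within each inducer, with the lowest day 1 array, from NGAL, at the level of the LIF and ANX arrays of day 2.

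Of 39 measured mitosis and spindle genes 3 fell, with a list median of -0.28, beside 1.83% and -0.02 for all tested genes. Birc5, survivin, a subunit of the chromosomal passenger complex, had 8.59 and 8.64 with LIF, 8.83 and 8.24 with NGAL and 8.55 and 8.72 with ANX on day 2, against 8.98 and 9.20 with LIF, 8.82 and 9.21 with NGAL and 9.16 and 9.16 with ANX on day 1. The highest day 2 array and the lowest day 1 array, both with NGAL, stood almost level, the other arrays were apart, and Birc5 fell by 0.50 (SE 0.09, limma adjusted p = 0.006). Ccnb1, the mitotic cyclin, fell by 0.43 and Ncaph, a condensin subunit, by 0.30. Mki67, the proliferation marker, changed by 0.04 and Pcna, the sliding clamp, by -0.28 (adjusted p = 0.0897); neither passed.

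Lig1 changed by -0.20, not passing, on the average of its probe sets. Quantile normalising the arrays again moved the list medians to -0.19 with 3 falls for replication and -0.20 with 2 falls for mitosis. In the 8 arrays with low dap ratios all 39 replication genes were again lower and none passed, and 1 mitosis gene passed. Leaving out 1 array gave 0 to 11 falls for replication, with 0 without NGAL day 1 replicate 2 and 11 without NGAL day 1 replicate 1 or NGAL day 2 replicate 1. The replicate block within inducers gave 8 falls for mitosis. Leaving out 1 array gave it 1 to 17, with 17 without NGAL day 2 replicate 1 and 10 without NGAL day 1 replicate 1. In uninduced culture the list medians were -0.25 for replication and -0.41 for mitosis.

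E2F factors drive many replication genes in S phase, so their motif was looked for in the promoters, 250 bases before to 50 after the start of the gene in the RefSeq table of build GRCr8, which matched 9445 of the 11388 tested genes. The letters TTTNNCGC, on either strand, stood in 14 of 34 replication promoters (41.2%) and in 8.48% of those of all tested genes. Of 6 fallen members with a promoter 3 held it. The promoters of Lig1 (chr1:83242920-83243219, plus strand) and Mcm5 (chr19:13488563-13488862, plus strand) are shown because both genes fell and both hold the motif, in capitals; in Mcm5 the first capital stretch is a pair of overlapping matches on opposite strands.
Lig1: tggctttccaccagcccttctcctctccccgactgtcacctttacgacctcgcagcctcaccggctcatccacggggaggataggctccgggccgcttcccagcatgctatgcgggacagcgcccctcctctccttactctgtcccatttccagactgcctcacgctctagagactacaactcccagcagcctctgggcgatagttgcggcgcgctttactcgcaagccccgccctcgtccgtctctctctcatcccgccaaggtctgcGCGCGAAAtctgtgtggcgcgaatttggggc
Mcm5: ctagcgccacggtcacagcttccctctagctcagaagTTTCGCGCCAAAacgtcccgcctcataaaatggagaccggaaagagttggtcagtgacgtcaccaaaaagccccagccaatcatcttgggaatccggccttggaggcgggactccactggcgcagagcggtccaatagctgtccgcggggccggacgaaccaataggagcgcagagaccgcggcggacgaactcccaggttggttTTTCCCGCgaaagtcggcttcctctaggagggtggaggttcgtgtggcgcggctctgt

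The proteasome, which degrades proteins marked with ubiquitin, was lower in all of its measured subunits. All 30 genes of the list had lower means on day 2, between -0.40 and -0.02, with a median of -0.27, and 10 passed, beside 1.83% of all tested genes that fell. They were Psmc5, Psmc1 and Psmc3, ATPases of the regulatory particle's base, Psmd1, Psmd2, Psmd3 and Psmd14 of the same particle, and Psma1, Psmb3 and Psmb7 of the core. Psma1 had 11.12 and 10.93 with LIF, 10.97 and 10.75 with NGAL and 11.14 and 11.09 with ANX on day 2, against 11.34 and 11.62 with LIF, 11.09 and 11.43 with NGAL and 11.36 and 11.45 with ANX on day 1. The days were apart under each inducer, and Psma1 fell by 0.38 (SE 0.08, limma adjusted p = 0.0195), or by 0.25 with the arrays quantile normalised again.

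Another scaling of the arrays reduced this shift. Quantile normalising the arrays again moved the list median to -0.13 with 5 falls, while the 8 arrays with low dap ratios gave a median of -0.29 with all 30 lower and none called. Leaving out 1 array gave 0 to 16 falls, with 0 without LIF day 2 replicate 2, NGAL day 1 replicate 2 or NGAL day 2 replicate 2, 1 without ANX day 1 replicate 2 and also without ANX day 2 replicate 2, 2 without LIF day 1 replicate 2, and 16 without NGAL day 1 replicate 1, and the replicate block within inducers gave 15. Cytosolic ribosomal protein genes, 27 measured, had a median of -0.03 with none called, chaperones, 21 measured, had none called, and ribosome biogenesis, 29 measured, had a median of -0.18 with 1 fall, Ddx21 (-0.37), a nucleolar helicase, which changed by -0.57 without passing on the average of its probe sets.

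The antioxidant response element, through which Nrf factors act on proteasome genes, was searched as TGACNNNGC on either strand. It stood in 5 of 26 proteasome promoters (19.2%) and in 14.8% of all tested promoters, and in 2 of 9 fallen members. These were Psmd3 (chr10:84139688-84139987, plus strand) and Psmd1 (chr9:94157721-94158020, plus strand), shown with the motif in capitals.
Psmd3: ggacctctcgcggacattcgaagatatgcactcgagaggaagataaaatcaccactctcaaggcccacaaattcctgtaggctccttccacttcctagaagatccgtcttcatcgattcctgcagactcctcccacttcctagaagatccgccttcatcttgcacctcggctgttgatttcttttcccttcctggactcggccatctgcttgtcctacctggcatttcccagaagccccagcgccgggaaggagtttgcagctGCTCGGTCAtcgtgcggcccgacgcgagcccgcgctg
Psmd1: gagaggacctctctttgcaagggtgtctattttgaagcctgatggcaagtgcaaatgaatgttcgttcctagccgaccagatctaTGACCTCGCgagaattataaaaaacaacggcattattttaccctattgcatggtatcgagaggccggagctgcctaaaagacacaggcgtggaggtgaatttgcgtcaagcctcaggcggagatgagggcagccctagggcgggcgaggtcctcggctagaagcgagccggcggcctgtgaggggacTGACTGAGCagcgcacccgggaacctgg

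The sterol regulatory element, searched as TCACNCCAC on either strand, was in none of 16 cholesterol promoters and in 1.12% of all tested promoters; other spellings and positions of the element were not searched.

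**Figure D4:**
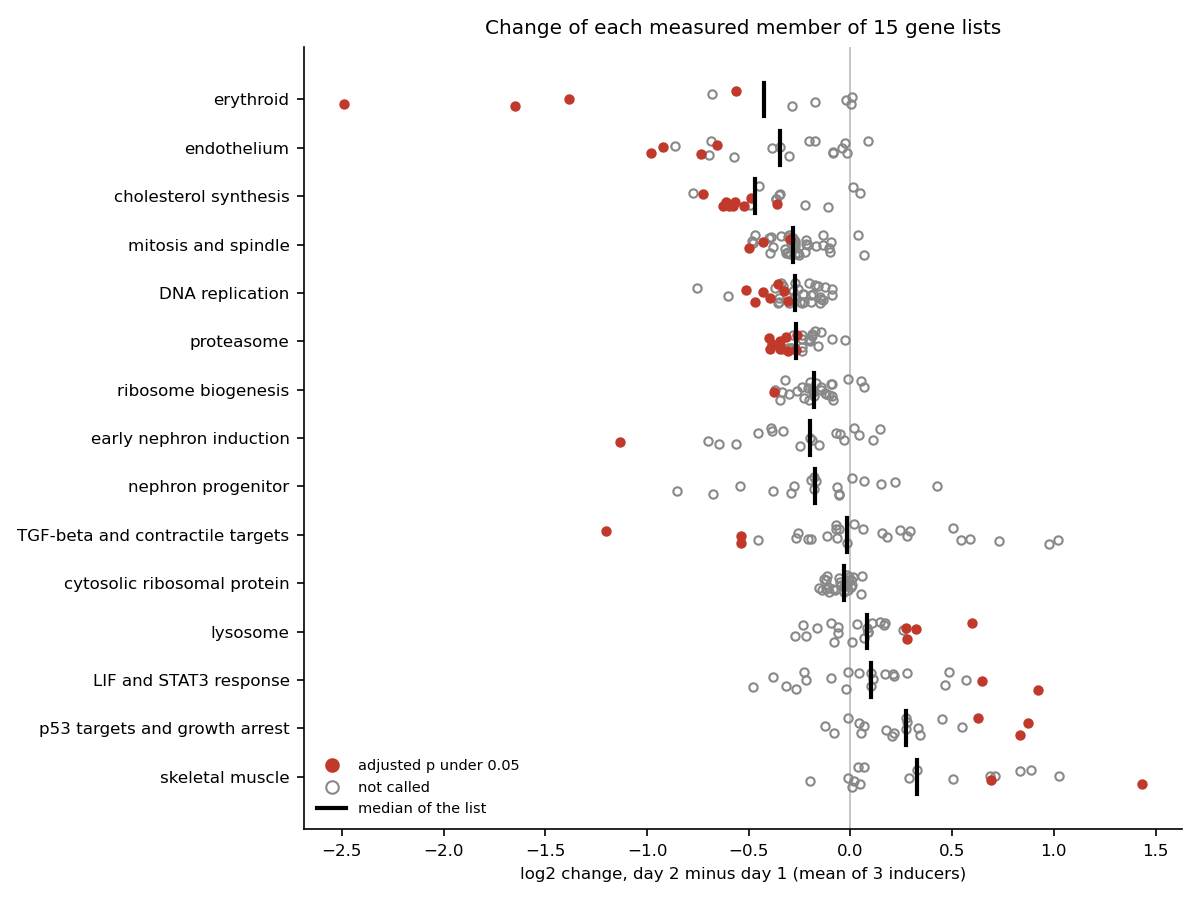
Log2 change on day 2 (x axis) of every measured member of 15 gene lists; filled points passed an adjusted p of 0.05, open points did not, and black lines are list medians. All 39 DNA replication and all 30 proteasome genes lie left of 0, while the ribosomal protein genes centre on -0.03.

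The largest rises were of a chemokine, muscle proteins and detoxifying enzymes. Cxcl13, a chemokine that attracts B cells, had 8.26 and 8.51 with LIF, 8.52 and 9.87 with NGAL and 9.48 and 9.92 with ANX on day 2, against 7.46 and 7.87 with LIF, 7.34 and 6.57 with NGAL and 7.68 and 7.81 with ANX on day 1. All day 2 arrays lay above all day 1 arrays, which held for 0.729% of tested genes in that direction. Cxcl13 rose 3.12-fold (log2 change 1.64, SE 0.43, limma adjusted p = 0.0398) but was called in only 2 of 12 fits without 1 array (adjusted p = 0.166 without NGAL day 2 replicate 2), and its uninduced change was 1.36 (adjusted p = 0.558).

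Crtac1, a secreted matrix protein first found in cartilage, had 7.88 and 8.27 with LIF, 7.47 and 7.69 with NGAL and 7.45 and 7.64 with ANX on day 2, against 6.28 and 6.24 with LIF, 6.73 and 6.79 with NGAL and 6.42 and 6.78 with ANX on day 1. The days did not overlap, and Crtac1 rose 2.28-fold (log2 change 1.19, SE 0.24, limma adjusted p = 0.011), called in all 12 fits without 1 array, with a log2 change of 0.70 on the average of its probe sets. Mgst1, a microsomal glutathione transferase that detoxifies lipid peroxides, had 9.03 and 9.56 with LIF, 8.88 and 8.52 with NGAL and 8.31 and 9.49 with ANX on day 2, against 7.94 and 8.93 with LIF, 7.74 and 7.62 with NGAL and 7.30 and 7.55 with ANX on day 1. A LIF array of day 1 reached the range of day 2, and Mgst1 rose 2.17-fold (log2 change 1.12, adjusted p = 0.0322). Its relative Mgst2 ran over 8.73 to 10.20 on day 2 and 7.90 to 8.58 on day 1 and rose 2.08-fold (adjusted p = 0.049), and in uninduced culture the changes, which did not pass, were 1.34 for Mgst1 and 1.93 for Mgst2. Mgst1 was called in 4 and Mgst2 in 1 of 12 fits without 1 array.

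Further rises with both arrays apart under every inducer included Mrln (1.07), a small inhibitor of the calcium pump of muscle, Igfbp2 (0.96), which binds insulin-like growth factors, Tmtc1 (0.91), a mannosyltransferase, Cldn11 (0.89), a tight junction protein, Myo6 (0.88), a myosin motor, Fam171b (0.92) and Sertad4 (0.86). Cldn11 lay between 10.53 and 11.57 on day 2 and between 9.37 and 10.61 on day 1, with a limma adjusted p of 0.0107; with all probe sets of the gene averaged its change was 0.46 and did not pass. Sertad4 changed by -0.09 in uninduced culture and was called in all 12 fits without 1 array (adjusted p = 0.00102). Mrln was called in none of those fits, and Igfbp2 in 1.

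Among the induced arrays of days 2 and 1, the skeletal muscle list stood highest in the NGAL arrays of day 2. Of 17 measured members 2 rose, beside 0.904% of all tested genes. They were Tnnt2 (1.43, SE 0.35, limma adjusted p = 0.0304) and Tnnc1 (0.69, adjusted p = 0.0285), troponin subunits that heart muscle also uses. Tnnt2 had 7.72 and 8.37 with LIF, 9.88 and 10.60 with NGAL and 7.68 and 8.26 with ANX on day 2, against 7.00 and 6.92 with LIF, 7.18 and 7.94 with NGAL and 7.29 and 7.58 with ANX on day 1. Of these induced arrays, only the NGAL arrays of day 2 lay above all day 1 arrays by more than 1 unit. Without inducer Tnnt2 averaged 10.29 on day 2, within the range of those NGAL arrays, and 8.41 on day 1. Its change was 2.68 with NGAL, 1.09 with LIF and 0.54 with ANX, which did not differ past the F-test (adjusted p = 1), and 1.88 in uninduced culture.

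The mean log2 level of the muscle list was 6.96 and 7.48 in the NGAL arrays of day 2, and 6.18 to 7.48 over all day 2 arrays against 6.10 to 6.23 on day 1. Its median change was 0.71 with NGAL, 0.06 with LIF and 0.02 with ANX, and 1.42 without inducer. The same NGAL arrays had the highest induced 5S rRNA signals; their part in the result was not tested. Tnnt2 was called in 3 and Tnnc1 in 5 of 12 fits without 1 array, and neither passed in the 8 arrays with low dap ratios. With the dap ratio as a covariate none of the list passed, and its median was 0.06, against 0.33 without it. With all probe sets of Tnnt2 averaged its change was 0.68.

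Targets of p53 and growth arrest genes had a median of 0.28 over 19 measured members, with 3 rises and no fall, beside 0.904% risen and a median of -0.02 for all tested genes. Cdkn1a, which encodes the cell cycle inhibitor p21, had 8.90 and 8.65 with LIF, 8.71 and 9.08 with NGAL and 10.71 and 10.47 with ANX on day 2, against 8.71 and 8.20 with LIF, 8.17 and 8.40 with NGAL and 9.0 and 8.81 with ANX on day 1. Ccng1, cyclin G1, had 10.16 and 10.45 with LIF, 10.46 and 10.54 with NGAL and 11.39 and 11.42 with ANX on day 2, against 9.80 and 9.93 with LIF, 9.49 and 9.85 with NGAL and 9.94 and 10.39 with ANX on day 1. Both genes were highest in the ANX arrays of day 2, and the LIF and NGAL arrays of day 2 for Cdkn1a, and the LIF arrays of day 2 for Ccng1, overlapped the ANX arrays of day 1. Cdkn1a rose by 0.87 (SE 0.22, limma adjusted p = 0.0371) and Ccng1 by 0.83 (SE 0.23, adjusted p = 0.0491).

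Cdkn2a, which encodes the INK4A and ARF inhibitors, had 4.39 and 3.99 with LIF, 4.46 and 4.74 with NGAL and 5.92 and 5.80 with ANX on day 2, against 4.48 and 4.11 with LIF, 4.22 and 4.00 with NGAL and 4.31 and 4.41 with ANX on day 1. Only its ANX arrays of day 2 stood above the threshold of 5.79, so the mean rise of 0.63 (limma adjusted p = 0.0308) became 0.03 with values under the threshold set to it, and its probe set can bind related transcripts. Of the 12 fits without 1 array, Cdkn2a was called in 3, Cdkn1a in 1 and Ccng1 in none (adjusted p = 0.148 without NGAL day 2 replicate 2). None passed in the 8 arrays with low dap ratios, where Cdkn1a changed by 0.85 and Ccng1 by 0.71.

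Lysosomal genes gave 4 rises and no fall among 23 measured, with a median of 0.08; of all tested genes 0.904% rose, with a median of -0.02. Asah1, acid ceramidase, had 7.38 and 7.52 with LIF, 7.88 and 8.34 with NGAL and 7.52 and 7.68 with ANX on day 2, against 6.77 and 7.28 with LIF, 7.10 and 7.43 with NGAL and 6.81 and 7.33 with ANX on day 1. It rose by 0.60 (SE 0.16, limma adjusted p = 0.0491), with the days apart within each inducer, and by 0.29, not passing, with all of its probe sets averaged. Gaa, acid alpha-glucosidase, rose by 0.32, Hexa, a hexosaminidase subunit, by 0.28, and Ctsa, cathepsin A, by 0.28. Outside the list, the largest rises held Tpp1 (0.87, adjusted p = 0.0199) and Ctsc (0.86, adjusted p = 0.0283), a pair of lysosomal peptidases.

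Gaa passed in the 8 arrays with low dap ratios (0.46, limma adjusted p = 0.0497) and the other 3 did not. Leaving out 1 array gave 0 to 4 rises, with 0 without LIF day 1 replicate 2, NGAL day 1 replicate 2, NGAL day 2 replicate 2, ANX day 2 replicate 1 or the first ANX replicate of day 1, 1 without LIF day 2 replicate 1 or 2, and 2 without LIF day 1 replicate 1. The CLEAR motif of the factor TFEB, searched as GTCACGTG on either strand, stood in 6 of 18 lysosomal promoters (33.3%) and in 3.90% of all tested promoters. Of 2 risen members with a promoter 1 held it, Gaa (chr10:105028105-105028404, plus strand), shown with the motif in capitals.
Gaa: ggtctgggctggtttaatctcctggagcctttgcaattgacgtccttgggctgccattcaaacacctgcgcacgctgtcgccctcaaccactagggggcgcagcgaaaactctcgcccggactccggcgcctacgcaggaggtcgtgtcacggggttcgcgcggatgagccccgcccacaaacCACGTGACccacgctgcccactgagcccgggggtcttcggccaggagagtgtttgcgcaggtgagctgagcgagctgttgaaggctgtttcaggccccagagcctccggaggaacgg

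Most genes of the LIF and STAT3 list did not pass the test of day 2 against day 1. LIF cultures had LIF on both days, and the mean also takes in NGAL and ANX, so the test does not measure the response to LIF. Of 22 measured members of the LIF and STAT3 list 2 rose, A2m (0.92, limma adjusted p = 0.049), a protease inhibitor, and Bcl6 (0.65, SE 0.14, adjusted p = 0.0182), a transcriptional repressor, and none fell. The list median was 0.10, beside -0.02 for all tested genes, and 0.38 in uninduced culture. Of the list 9.09% passed, beside 2.73% of all tested genes. Bcl6 ran over 8.46 to 8.90 on day 2 and 7.43 to 8.38 on day 1 with no overlap, and its change was 0.51 with LIF, 1.23 with NGAL and 0.21 with ANX. Socs3, the feedback inhibitor of the pathway, changed by -0.02 and Lcn2 itself by 0.21, and neither passed. For Lcn2, 4 of the induced group means of these days lay below the threshold. A2m was called in 2 and Bcl6 in 9 of 12 fits without 1 array, and A2m changed by 0.56 in the 8 arrays with low dap ratios, where it did not pass.

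Matrix proteases went both ways. Adamts1 (0.72, limma adjusted p = 0.034) and Mmp2 (0.72, adjusted p = 0.0199), secreted metalloproteases, rose, and Serpine2 (-0.78, adjusted p = 0.0295), a protease inhibitor, fell, among 31 measured. That is 9.68% of the list, beside 2.73% of all tested genes, and the list median was -0.04. Tnfaip6, an inflammation-induced hyaluronan-binding protein, fell by 1.93 (SE 0.48, adjusted p = 0.0309) but ran over 5.07 to 8.18 on day 2 and 5.04 to 10.11 on day 1, so that the days overlapped widely. On the average of their probe sets the changes were 0.41 for Mmp2 and -1.13 for Tnfaip6. Tnfaip6 was the 1 gene of 23 measured in the inflammatory list that passed (4.35%). Of Wnt pathway genes, 24 measured, 8.33% passed: Lef1 fell and Tcf7l1, a repressor of the same factor family, rose by 0.37 (adjusted p = 0.0491).

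Single members passed in 3 other metabolic or hormone lists: Hk1 (-0.46) of 21 glycolysis genes, Aldh1l2 (0.43) of 32 amino acid genes and Klf9 (0.64), a glucocorticoid-induced factor, of 12 glucocorticoid targets. These are 4.76%, 3.12% and 8.33% of their lists, beside 2.73% of all tested genes. With all of its probe sets averaged Klf9 changed by 0.25 and did not pass. No gene passed among 46 measured of oxidative phosphorylation, 31 collagens, 32 matrix glycoproteins, 25 immediate early genes, 24 homeobox genes, 20 epithelial genes, 16 hypoxia genes, 15 interferon genes, 14 iron genes, 14 FGF pathway genes, 14 macrophage genes, 12 ureteric bud genes, 9 cartilage genes, 8 podocyte genes or 7 tubule genes.

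The inducers taken alone gave few calls. With LIF, 9 genes passed (0.079%), beside 907 at an unadjusted p under 0.05 (7.96%). Cds1 (1.60), Gna14 (1.90) and Sertad4 (1.14) rose (0.0263% of tested genes), and Hbg1 (-3.11), Nceh1 (-1.01), Armh4 (-1.44), Esm1 (-1.26), Gap43 (-1.77) and Tbx18 (-1.61) fell (0.0527%). With ANX, 3 passed (0.0263%), beside 451 at an unadjusted p under 0.05 (3.96%): Cdkn2a (1.5) rose (0.00878%), and Esm1 (-1.48) and Hbg1 (-3.20) fell (0.0176%). With NGAL 0 genes passed in limma, beside 1166 at an unadjusted p under 0.05 (10.2%). These counts changed with single arrays too: 0 to 2 with LIF, 0 to 2 with NGAL and 0 to 3 with ANX, as each array was left out. With a replicate block the LIF changes of Sertad4, Gap43 and Tbx18 no longer passed. With the block set within inducers 3 LIF falls passed, against 6 in the main fit, so a further fall lost its call.

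Some of these calls rest on values near or below the threshold of 5.79. Gna14, a G protein alpha subunit, had 6.30 and 7.26 with LIF on day 2 and 4.75 and 5.01 with LIF on day 1, whereas its NGAL and ANX arrays of both days lay at 4.11 to 4.63. All of its arrays but the LIF arrays of day 2 were below the threshold, and its mean change of 0.73 became 0.33 with values under the threshold set to it. Esm1, an endothelial proteoglycan, had means of 4.24 with LIF and 4.51 with ANX on day 2, against 5.50 with LIF and 5.99 with ANX on day 1. Of these 4 means only the last is above the threshold, and the mean change of Esm1, -0.97, became -0.07 with values under the threshold set to it. Cds1, an enzyme that makes CDP-diacylglycerol, changed by 1.60 with LIF, 0.75 with NGAL, 0.16 with ANX and 1.17 in uninduced culture (limma adjusted p = 0.0995). The F-test of a difference between the 3 inducers passed for no gene (0 genes in limma, beside 123, or 1.08%, at an unadjusted p under 0.05). The unadjusted p was 0.000626 for Gna14, 0.00102 for Cds1, 0.0011 for Cdkn2a and 0.00172 for Esm1 in that limma F-test fitted across all arrays, and each adjusted p was 1.

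The changes under the inducers, which share no arrays, correlated positively over the genes. Over 11388 genes, which are not independent, Pearson's r and Spearman's rho were 0.32 and 0.32 between LIF and NGAL, 0.56 and 0.51 between LIF and ANX, and 0.54 and 0.56 between NGAL and ANX. The inducers' changes gave 0.28 and 0.33 for LIF, 0.60 and 0.51 for NGAL and 0.40 and 0.39 for ANX with the change in uninduced culture. Array quality was partly shared: replicate 2 of day 2 had dap ratios of 2.15 to 2.35 under all 3 inducers. The 5S rRNA signal of day 2 was 9.63 and 9.36 with NGAL and 10.1 and 10.32 without inducer. The part of these measures in the correlations was not tested.

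In uninduced culture the risen and fallen genes mostly moved the same way. Of the 103 risen genes 79 (76.7%) were also higher there on day 2, with a median of 0.19, and of the 208 fallen genes 189 (90.9%) were lower, with a median of -0.26. Over all tested genes 68.5% had the same sign in induced and uninduced culture, a share not far below that of the risen genes. The dap ratio was 1.97 and 2.04 in the uninduced arrays of day 2 and 1.97 and 0.77 in those of day 1. Its part in the shared signs was not tested. No gene passed the test of a difference between the induced and the uninduced change (0 in limma, beside 488, or 4.29%, at an unadjusted p under 0.05). In uninduced culture alone 1 gene passed (0.00878%), Rasgrp3 (-1.44, limma adjusted p = 0.0115), beside 1112 (9.76%) at an unadjusted p under 0.05. C1qtnf12 changed by 0.15, Gap43 by 0.18, Map7 by 0.03 and Fst by -0.03 without inducer, and for each the adjusted p of the difference from induced culture lay between 0.76 and 1.

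The second day was a step of longer courses. From fresh tissue (day 0) through induced days 1, 2, 3, 4, 5 and 7, Hbg1 averaged 13.21, 9.71, 7.22, 5.57, 4.91, 4.57 and 4.68, so that the second day lay inside a long decline, with means over the inducers below the threshold from day 3 on. Insig1 averaged 9.11, 10.73, 10, 9.49, 9.75, 9.73 and 9.71 over the same days, with its highest mean on day 1, which held under each inducer. Cxcl13 averaged 4.49, 7.45, 9.09, 9.0, 8.95, 9.14 and 8.84. By inducer, Cxcl13 averaged 7.70 with LIF, 10.95 with NGAL and 7.87 with ANX on day 7, against 8.38 with LIF, 9.20 with NGAL and 9.70 with ANX on day 2.

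Crtac1 averaged 6.40, 6.54, 7.73, 7.66, 7.54, 7.29 and 6.5, with the highest mean over the inducers on day 2. By inducer, Crtac1 was highest on day 2 with NGAL, on day 3 with LIF (8.82, against 8.07 on day 2) and on day 4 with ANX (7.61, against 7.55 on day 2). Wnt4 averaged 9.08, 9.08, 8.38, 8.66, 9.87, 9.62 and 9.14, and Pax8 averaged 8.69, 8.91, 8.26, 8.83, 10.11, 10.32 and 10.32. Both of these induction genes had their lowest mean over the inducers on day 2 and higher means on days 4 and 5. With LIF the lowest mean was on day 3 for both, at 8.05 for Wnt4 and 8.50 for Pax8. From day 3 to day 7 the 103 risen genes had a median change of 0.00, with 52 higher and 51 lower, and the 208 fallen genes one of -0.15, with 53 higher and 155 lower.

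**Figure D5:**
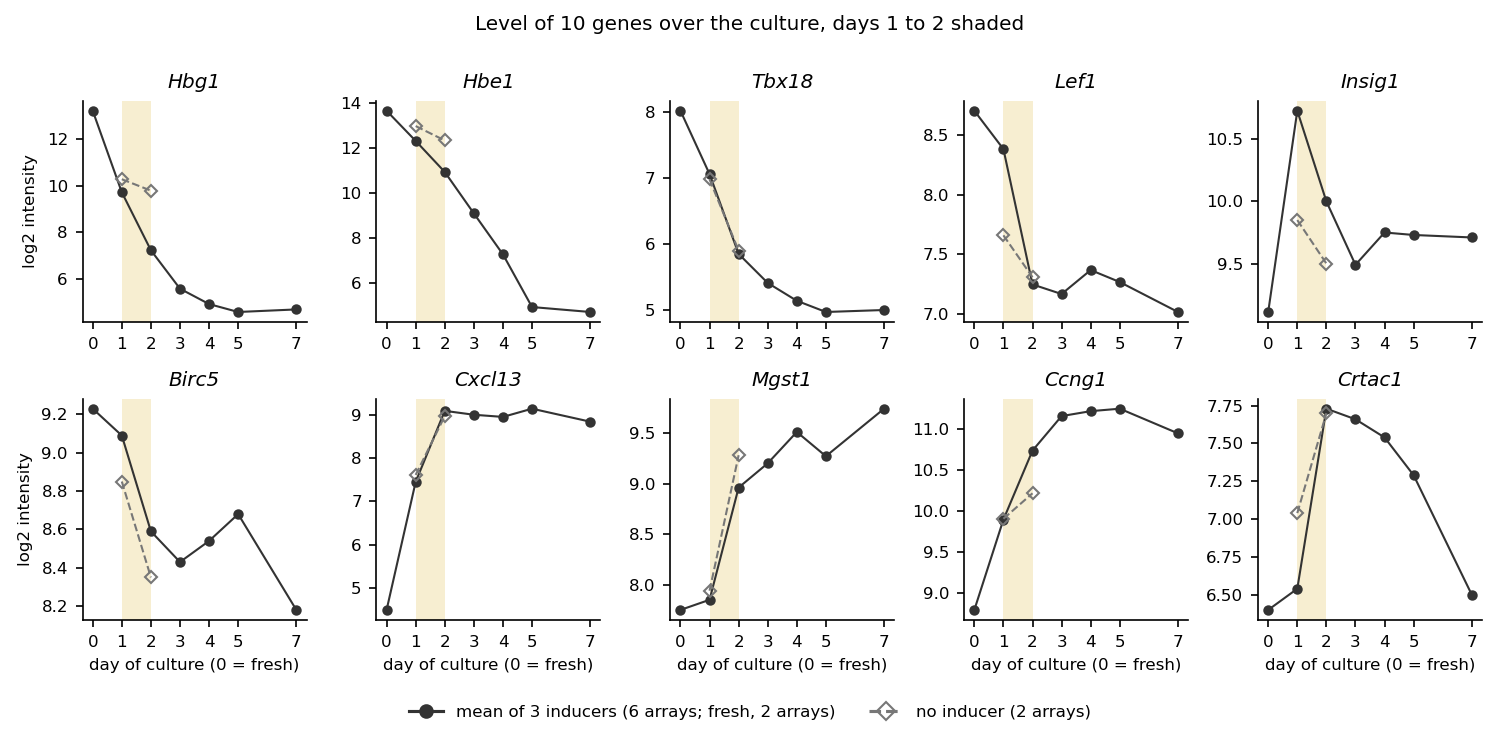
Mean log2 intensity of 10 genes over days of culture (x axis, 0 is fresh tissue); filled points are the mean of the induced arrays, open diamonds uninduced culture, and the shaded band spans days 1 to 2. In these means over the inducers Hbg1 declines through day 5, Insig1 is highest on day 1 (10.73) and Crtac1 on day 2 (7.73).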

How the data were processed

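Values are the authors' deposited RMA intensities on a linear scale, 1 per probe set and array, made with RMA per the series design and the submitters' processing notes, for which the sources used here give no version. They ran over 7.6 to 17972, with array medians of 83.3 to 88.4, and 0 columns were left unused. The number of arrays, 2 per group, limits the precision.

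Log2 was taken. Of 31099 probe sets 20832 carry 1 gene symbol (20764 matched to RefSeq), 436 several and 9831 none, by the platform annotation. The probe set with the highest mean over all arrays stood for each of 14218 genes, and 11388 genes were tested whose highest group mean passed the 40th percentile (log2 5.79, intensity 55.2). Of these, 528 rest on probe sets that may pick up related transcripts.

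A mean was fitted per group over all 42 arrays (limma 3.58.1, R 4.3.3, lmFit and eBayes with a variance trend, 21 residual degrees of freedom), so all groups share 1 estimate of the spread. Contrasts were the mean of 3 within-inducer changes, each inducer's change, their F-test, the uninduced change and the induced minus the uninduced change. P-values are two-sided and Benjamini-Hochberg adjusted over all tested genes. On simulated arrays with 200 changed genes of 11388 the mean contrast recovered 63% of 0.5 shifts and 91% of 1 shifts in log2, with 8 false calls. The simulated noise was independent for each gene and array, with no effect shared by the genes of an array. The 8 false calls therefore do not measure errors that come from array quality.

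The labels number the replicates but do not say what a number shares. Deviations of same-numbered arrays of days 2 and 1 correlated at 0.60 for LIF, 0.11 for NGAL, 0.12 for ANX and -0.11 for uninduced arrays. The numbers were taken to pair the induced arrays, as a reading of the data that rests mainly on LIF. For NGAL and ANX the values are small, and pairing there is an assumption. Over all 15 pairs of the 6 induced groups these correlations ran over -0.43 to 0.74, so a number did not mark arrays alike in every pair of groups. On day 2 the number went with the dap ratio under all inducers, at 2.15 to 2.35 in replicate 2 and 0.88 to 1.48 in replicate 1. The block within inducers is the fit that follows the pairing, and the main count of 311 genes comes from a fit without it. Fits with and without the replicate block are given.

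Alternatives were other filters, quantile normalization, averaged probe sets, every probe set tested singly, no variance trend, array weights, only the compared arrays, the replicate block, the dap ratio as a covariate, a 2-fold minimum and leaving out each array. Removing arrays with a dap ratio over 1.5 was added after seeing the data. It left only replicate 1 of each inducer on day 2, so the smaller number of arrays itself lowers the count of calls.

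The comparison, its 40 gene lists (836 of 1055 members measured) and the naming rule were chosen with earlier results of these data known. The rule named the 14 largest rises and falls with arrays apart under every inducer, up to 4 called members per list and fixed anchor genes. Further called members of the lists described, and the genes called under single inducers, were named after their values were seen.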

Additional observations from a re-analysis of the deposited data

How the results depend on the processing

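The count of 311 genes became 1014 with array weights (349 higher, 665 lower), 479 in a fit of only the 12 arrays, 168 with the dap ratio as a covariate (50 higher, 118 lower), 17 without the arrays whose dap ratio exceeds 1.5, an alternative chosen after seeing the data, and 27 with a 2-fold minimum, where the stricter rule itself lowers the count. It was 246 without a filter, 347 with the stricter filter, 316 with the filter on the compared groups, 350 with quantile normalization (198 higher, 152 lower), 324 with probe sets averaged, 319 with all probe sets tested singly and 277 without the variance trend. Leaving out 1 array gave 43 to 509 genes.

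The replicate block, which pairs arrays by number, gave 545 genes, or 595 within inducers. Under the block within inducers 5 genes passed with LIF, 5 with NGAL and 6 with ANX; with 1 block for all, NGAL had 3. In both fits it left the called mean changes of the named genes past the threshold, but the LIF changes of Sertad4, Gap43 and Tbx18 no longer passed. With the block within inducers 3 LIF falls passed, against 6 in the main fit, so a further LIF fall lost its call there.

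For LIF alone, 9 genes became 3 with the stricter filter, 3 with probe sets averaged, 5 with all probe sets singly, 39 with array weights, 23 with only the compared arrays, 4 with the dap covariate, 2 without the high dap ratios and 0 to 2 without 1 array. For NGAL alone, 0 genes became 2 with quantile normalization, 4 with array weights, 51 with only the compared arrays and 0 to 2 without 1 array. For ANX alone, 3 genes became 1 with the stricter filter, 13 with array weights, 17 with only the compared arrays, 5 with the dap covariate, 0 without the high dap ratios and 0 to 3 without 1 array. The F-test between inducers called 0 genes throughout (123 unadjusted). The difference from uninduced culture called 8 genes with only the compared and uninduced arrays, and 0 to 1 without 1 array. The causes were not tested.

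Of the 77 called genes picked by the naming rule, 8 kept their call under every alternative, none turned its sign, and 4 of 18 uncalled ones gained a call under at least 1. Groups of 2 arrays, a dap ratio that is higher on day 2 and probe sets near the threshold limit these results.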

Other observations

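Other called genes outside the lists, chosen after their values were seen, share functions with the groups above. Among lysosomal genes, Dpp7, a dipeptidase, ran over 8.97 to 9.68 on day 2 and 8.41 to 8.82 on day 1 and rose by 0.57 (limma adjusted p = 0.000981), with no overlap between the days. Fuca1, the lysosomal fucosidase, ran over 9.63 to 9.88 on day 2 and 9.07 to 9.51 on day 1 and rose by 0.42 (adjusted p = 0.00814). Ctsf, cathepsin F, rose by 0.62 (adjusted p = 0.026) and Ctns, the cystine exporter of lysosomes, by 0.39 (adjusted p = 0.0195).

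Among genes of lipid synthesis, Aacs, which activates acetoacetate for sterol and fatty acid synthesis, fell by 0.70 (limma adjusted p = 0.0104), Me1, malic enzyme, by 0.65, Acsl4, an acyl-CoA synthetase, by 0.52 and Tmem97, a sterol-regulated membrane protein, by 0.38 (adjusted p = 0.00765). Cnp, a phosphodiesterase of myelinating cells, rose by 0.78 (adjusted p = 0.000382) and was called in all 12 fits without 1 array. These genes were picked for their function from the 311 called, so they give no count of their groups.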
